A study of Homo sapiens with 6 samples.

Results

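The replication-dependent histone genes encode the H1, H2A, H2B, H3 and H4 proteins that package newly copied DNA. They were taken as every row of the count table whose symbol belongs to the H1-1 to H1-6, H2AC, H2BC, H3C or H4C series, which gave 66 of 60591 genes: 6 for H1, 16 for H2A, 17 for H2B, 13 for H3 and 14 for H4. No measured value entered the choice. The samples were MDA-MB-231 cells of the bone-homing variant, a line of human triple-negative breast cancer, in a 3-dimensional loading model. They were kept static with no flow, or put under fluid shear at 1 mL/min (low flow) or 15 mL/min (high flow), with 2 libraries in each group. The study asks how these cells respond to fluid movement of the kind that loading causes in bone. The sources used here do not say how long the flow lasted or whether the libraries of a group came from separate cultures.

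Replication-dependent histone genes lie in clusters, lack introns for the most part and are transcribed mainly in S phase, when new chromatin is built. Their standard mRNA is unlike other mRNAs of animal cells: it ends in a conserved stem-loop in place of a poly(A) tail. The stem-loop is bound by SLBP, and the U7 small nuclear ribonucleoprotein directs the cut just after it. Some of these genes also give longer, polyadenylated transcripts from sites beyond the stem-loop. The libraries here were made from poly(A) RNA, so the counts are not a direct measure of the standard histone mRNA.

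The stem-loop is shown because it defines the 3′ end that poly(A) selection passes over. In GENCODE 29, 62 of the 66 genes matched transcripts, and 25 of them had a stem-loop of 16 bases in an annotated transcript. It was searched as a stem of 6 bases that starts with GG, a loop of 4 bases that starts with TTT, and the reverse complement of the stem with 1 mismatch allowed. The capitals mark the loop.
H2BC18, H2BC21, H2AC6, H2BC6, H3C10, H2BC15 and 7 untested genes: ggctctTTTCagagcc
H4C8, H4C2, H4C5 and H4C11: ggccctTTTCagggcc
H2BC4, H2BC5, H2BC7 and H3C8: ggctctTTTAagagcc
H4C14, H4C15 and H4C9: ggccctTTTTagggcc
H2AC11: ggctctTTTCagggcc
The forms differ in the last base of the loop and in the middle of the stem. For the other 41 genes none was found, and many of their annotated transcripts stop at the coding sequence, so this says nothing of the gene itself.

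Histone promoters carry a small set of shared elements, and RefSeq promoter sequences on GRCh38.p14 (250 bases before to 50 after the start) matched 61 of the 66 genes. CCAAT, on either strand, was present in 85.2% of these promoters against 34.6% of the 35116 promoters in the table, with all H1, H2A, H2B and H3 promoters and 3 of 12 H4 promoters holding it. TATAAA was in 67.2% against 11.5%. The octamer ATTTGCAT, the site of OCT1 known from H2B promoters, was in 14 of 17 H2B and 11 of 15 H2A promoters, or 42.6% of all members against 1.77%. AAACACA, the H1 box, was in 6 of 6 H1 promoters, 14.8% of members and 5.64% of all promoters. TTTCGCGC, an E2F-type site, was in 19.7% against 0.515%. Each motif was searched by itself on both strands, so matches of different motifs may overlap, and a match is a description of the sequence only. Divergent genes with starts under 250 bases apart share promoter sequence, so 1 site can count for both genes. The octamer between H2BC21 and H2AC20 is such a site. H3C4 and H2AC7 have the same promoter sequence, so the percentages of members do not rest on separate promoters only.

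The promoters below belong to H1-2, the linker histone gene with the highest count, and to 3 pairs that share a start region between divergent genes. They are shown because the results below give the values of both members of each pair side by side. A pair's sequence runs on the minus strand from the start of the gene named first to the start of the gene named second. Capitals mark the CCAAT box, the TATAAA box and the octamer on either strand, and for H1-2 the H1 box as well.
H1-2, chr6:26056471-26056620, minus strand: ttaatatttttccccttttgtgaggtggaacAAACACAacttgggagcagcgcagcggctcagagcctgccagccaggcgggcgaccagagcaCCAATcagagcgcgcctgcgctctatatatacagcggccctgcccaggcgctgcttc
H2AC6 to H2BC4, chr6:26123927-26124171, minus strand: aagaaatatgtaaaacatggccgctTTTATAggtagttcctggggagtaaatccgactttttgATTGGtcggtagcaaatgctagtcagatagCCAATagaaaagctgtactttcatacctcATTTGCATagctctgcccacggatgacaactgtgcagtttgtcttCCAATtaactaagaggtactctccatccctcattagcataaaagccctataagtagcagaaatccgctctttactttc
H2AC12 to H2BC12, chr6:27146859-27147105, minus strand: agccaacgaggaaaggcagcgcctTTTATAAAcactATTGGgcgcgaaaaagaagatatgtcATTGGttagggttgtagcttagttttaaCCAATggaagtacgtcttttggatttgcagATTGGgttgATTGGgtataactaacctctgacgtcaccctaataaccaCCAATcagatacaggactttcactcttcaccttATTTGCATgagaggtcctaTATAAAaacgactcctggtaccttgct
H2BC17 to H2AC17, chr6:27893186-27893424, minus strand: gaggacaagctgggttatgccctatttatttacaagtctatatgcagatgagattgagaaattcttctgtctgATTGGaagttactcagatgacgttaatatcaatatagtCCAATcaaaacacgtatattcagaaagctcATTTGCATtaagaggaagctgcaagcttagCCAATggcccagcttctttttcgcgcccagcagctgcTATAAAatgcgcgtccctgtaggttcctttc
Each of the 3 shared regions holds the octamer, CCAAT and TATAAA, and the pairs shown were picked with their values known.

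Library totals ran from 17822642 to 23544307 counts for static, 45174328 to 47067620 for low flow and 43965176 to 53279537 for high flow, so the static libraries were the shallowest. A count of 3 corresponded to 0.130 to 0.165 CPM (counts scaled to a common library size) in static libraries and to 0.0563 to 0.0702 CPM in those under flow. Column names place both high flow libraries in a different sequencing lane from the other 4, so in a contrast with high flow the lane and the flow rate cannot be told apart. The labels call the cell type endothelial cancer cells. Marker genes of MDA-MB-231 summed to 6514 to 8260 CPM, and the 6 endothelial markers to 9.98 to 15.9 CPM, of which PECAM1 gave 8.32 to 14.1 while CDH5 was at or near 0 (0 to 0.0869). PECAM1 rose under both flows (log2 fold changes 0.70 and 0.55), and KDR, of the same list, fell under high flow (-1.39). ERBB2, of the luminal markers, rose under high flow (0.33). PTPRC was at 0 in static and at most 0.169 CPM under flow, and IBSP was at 0 in every library. The part of these markers in the histone results was not tested.

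The 66 histone genes together took a smaller part of the counts under flow. Their summed CPM was 139.9 and 139.1 in the static libraries, 105.4 and 116.6 under low flow, and 99.3 and 92.5 under high flow. No library of one group overlapped with another group, and the means of 139.5 ± 0.58, 111.0 ± 7.88 and 95.9 ± 4.79 CPM (SD, n = 2) give ratios to static of 0.796 for low and 0.687 for high flow. With 2 libraries against 2 the smallest two-sided p of an exact permutation test is 0.333, so the sums are given without a test. H1-2, H2BC12, H2BC5 and H2AC6 made up 75.4% of the members' CPM. Without these 4 genes the ratios were lower, at 0.637 and 0.508.

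Classes differed in how far their sums moved, and the differences between classes were not tested. The H3 genes, whose protein forms the core of the nucleosome with H4, summed to 4.08 and 4.35 CPM in static, 1.91 and 1.37 under low flow and 1.59 and 1.31 under high flow, with ratios of 0.389 and 0.345. These H3 sums rest on 66 to 100 counts per library. Of their means of 4.21, 1.64 and 1.45 CPM, in the same order of groups, H3C12 gave 1.96, 0.635 and 0.529. Its reads may be shared with H2AC17. The H1 genes, for the linker histones that bind DNA where it enters the nucleosome, summed to 48.0 and 45.2 CPM, then 32.6 and 34.5, then 28.5 and 28.3. H4 sums were 7.498 and 8.74 CPM in static, 6.74 and 5.36 under low flow and 4.40 and 4.88 under high flow. In these 3 classes every library under flow lay below both static libraries. H2A sums were 17.4 and 22.3, 16.6 and 17.2, and 13.9 and 11.6 CPM, and H2B sums were 62.9 and 58.4, 47.7 and 58.1, and 50.8 and 46.4 CPM. Both were below static in all 4 libraries under flow, but the second low flow library came close to static for H2B (58.1 against 58.4), and the ratios of H2B, 0.872 and 0.802, were nearest to 1.

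**Figure D1:**
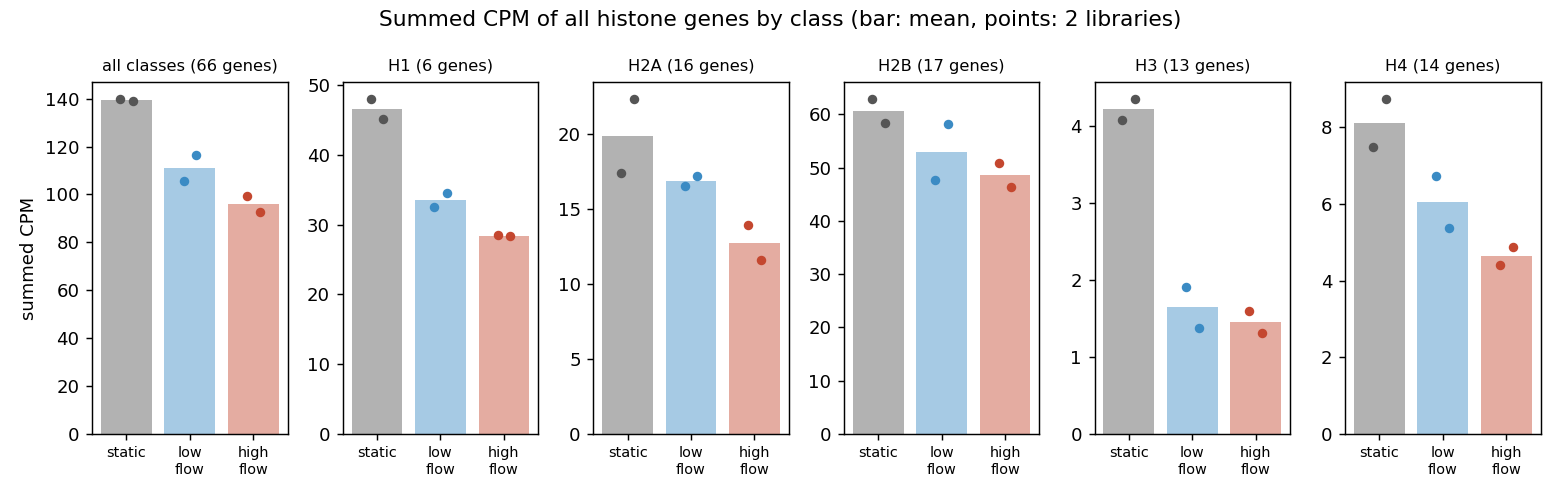
Summed CPM of the histone genes, for all 66 genes and for each class, in static, low flow and high flow; bars are group means and points the 2 libraries. The sum over all genes falls from about 139.5 CPM in static to 111.0 under low flow and 95.9 under high flow, and the H3 panel shows the lowest ratio to static. The H3 sums rest on 66 to 100 counts per library, and classes were not tested against each other.

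Of the 66 genes, 24 passed the expression filter and were tested, 16 of them on their level in all 6 libraries. H3C3, H2AC12 and H4C12 passed only through the static libraries, so a difference was built into their selection, and the 24 do not stand for the 66. Under low flow against static, 6 of the 24 were lower at an adjusted p under 0.05 (edgeR's quasi-likelihood test with Benjamini-Hochberg adjustment over 20676 genes). Of all tested genes 3.49% were called lower. None of the 24 was higher (3.25% of all tested genes), also at an unadjusted p under 0.05 in edgeR and DESeq2. Under high flow against static, 12 of the 24 were lower against 6.43% of all tested genes, and none was higher against 7.49%, again none at an unadjusted p under 0.05 with either tool. DESeq2, which gave an adjusted p to 9 and 15 of the members, called 2 and 9 lower, against 856 and 1213 of all 20676 tested genes. At an unadjusted p under 0.05, 2427 and 3111 of all tested genes were higher with edgeR and 1920 and 2573 with DESeq2. The 6 genes lower under both flows were H1-2, H1-4, H2BC21, H3C3, H3C12 and H2AC17, and both comparisons use the same static libraries. Without the 3 genes that passed only through static, 5 of 21 were lower under low flow, 10 under high flow and 5 under both.

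The median log2 fold change of the 24 was -0.51 under low and -0.94 under high flow, beside 0.01 and 0.00 over all tested genes, and 21 of 24 were negative in each comparison. These figures include H3C3, H2AC12 and H4C12, which passed the filter only through static and were negative in both. A difference was therefore built into part of them. Among the 14 that averaged 1 CPM or more, 4 were lower and 0 higher under low flow (4.39% and 4.24% of all genes at that level). Under high flow 8 were lower and 0 higher (7.5% and 9.62%), and between the flow rates 0 were lower or higher (0.122% and 0.303%). H3C12 is among both the 4 and the 8, with a mean of 1.04 CPM. It had 1.49 and 2.43 CPM in static and 0.357 to 0.812 under flow. It therefore passed the cut of 1 CPM only through static, and a difference was built into its selection. Groups did not overlap, with flow below static, in 14 of 24 genes for low flow (26.3% of all tested genes) and 19 of 24 for high flow (29.4%). Flow lay above static in 2 genes for low flow (27.1%) and 1 for high flow (29.9%). Both the 14 and the 19 include H3C3, H2AC12 and H4C12. Leaving out single libraries moved the number of calls. Each such fit leaves 1 library in a group, and its calls over all genes are not given here. A loss among the histone genes can therefore not be told from a general loss of calls. Without the second static library, which is the deeper of the static pair, 0 members passed for low flow and 3 for high flow (H1-2, H2BC21 and H1-4). Without the first they were 2 and 11. Without the first or the second high flow library 6 or 4 passed for high flow, and without the second low flow library 2 passed for low flow.

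**Figure D2:**
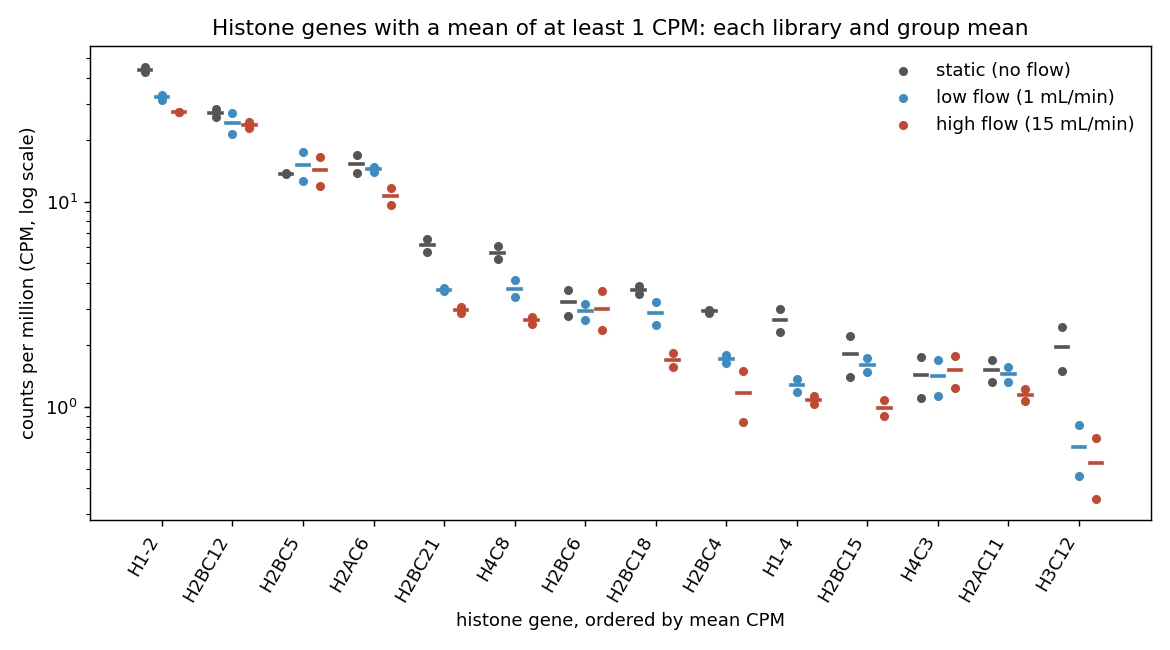
CPM on a log scale of the 14 histone genes that averaged 1 CPM or more, ordered by mean; points are single libraries and short bars group means for static, low flow and high flow. H1-2 is highest, with 44.99 and 42.6 CPM in static above all 4 libraries under flow, whereas the points of H2BC5 and H2BC6 mix across groups.

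H1-2 (ENSG00000187837; chromosome 6, 26055740 to 26056470, minus strand), a main linker histone of somatic cells, had 44.99 and 42.6 CPM in static, 31.3 and 33.1 under low flow and 27.3 and 27.3 under high flow. The 3 groups were apart, in that order. It was 1.36-fold lower under low flow (log2 fold change -0.44, SE 0.10, adjusted p = 0.0165) and 1.60-fold lower under high flow (-0.68, SE 0.10, adjusted p = 0.000533). H1-4 (ENSG00000168298; chromosome 6, 26156329 to 26157115), another somatic linker histone, had 2.98 and 2.30 CPM in static, 1.19 and 1.37 under low flow and 1.12 and 1.03 under high flow. Both static libraries lay above all 4 others, and the flow groups lay close together. It was 2.05-fold lower under low flow (log2 fold change -1.03, SE 0.27, adjusted p = 0.0283) and 2.44-fold lower under high flow (-1.28, SE 0.27, adjusted p = 0.00589). H1-2 kept its call under high flow in all 12 alternatives run. Under low flow it lost the call when either static library was left out. H1-4 passed in 4 of 11 alternatives under low flow, and under high flow it lost the call when either high flow library was left out. H1-1, H1-5 and H1-6, the last of these a testis form, were under the filter, and H1-3 had 0 counts in every library.

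Among the H2B genes, whose protein pairs with H2A, the genes with the most counts did not pass the test. H2BC12 (ENSG00000197903; chromosome 6, 27138293 to 27146858, minus strand) had 28.3 and 25.7 CPM in static, 21.4 and 26.8 under low flow and 22.7 and 24.5 under high flow. Its log2 fold changes were -0.16 (SE 0.12, adjusted p = 0.463) and -0.19 (SE 0.12, adjusted p = 0.315). In GENCODE 29 its only transcript has 381 bases, and 74.1% of the 50-base words in it also occur in another gene, mainly in H2BFS. The RefSeq span is longer, so this share covers a part of the gene only. Reads from that part may be lost or shared, which leaves the counts of H2BC12 uncertain. H2BC5 (ENSG00000158373; chromosome 6, 26158121 to 26171349) had 13.8 and 13.6 CPM, then 12.6 and 17.4, then 16.4 and 11.9. Its flow libraries lay on both sides of static, with log2 fold changes of 0.13 (SE 0.18) and 0.05 (SE 0.18). H2BC6 likewise mixed across groups, at 3.69 and 2.78 CPM in static, 2.66 and 3.18 under low flow and 3.65 and 2.37 under high flow.

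Other H2B genes fell. H2BC21 (ENSG00000184678; chromosome 1, 149884459 to 149886682, minus strand), which encodes H2B type 2-E, had 6.56 and 5.65 CPM in static, 3.64 and 3.78 under low flow and 3.07 and 2.85 under high flow. No groups overlapped. It was 1.64-fold lower under low flow (log2 fold change -0.71, SE 0.19, adjusted p = 0.0284) and 2.06-fold lower under high flow (-1.04, SE 0.19, adjusted p = 0.00220), and passed in 5 of 12 alternatives for low flow and in all 12 for high flow. H2BC18 (chromosome 1, 149782689 to 149812370, minus strand) had 3.53 and 3.87 CPM, then 3.23 and 2.51, then 1.57 and 1.82. Its high flow libraries were the lowest, 2.18-fold below static (log2 fold change -1.12, SE 0.23, adjusted p = 0.00496), while low flow was not called (-0.37, SE 0.22, adjusted p = 0.335).

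H2BC4 (chromosome 6, 26113170 to 26123926, minus strand) had 2.87 and 2.96 CPM in static, 1.62 and 1.79 under low flow and 1.498 and 0.845 under high flow. All flow libraries lay below static, with a call under high flow (2.51-fold lower, log2 fold change -1.33, SE 0.29, adjusted p = 0.00619) and none under low flow (-0.77, SE 0.28, adjusted p = 0.0980). H2BC11 (chromosome 6, 27132316 to 27132795, minus strand) had 1.32 and 1.87 CPM, then 0.724 and 0.748, then 0.562 and 0.676. It was 2.58-fold lower under high flow (log2 fold change -1.37, SE 0.34, adjusted p = 0.0133) and just missed the threshold under low flow (-1.13, SE 0.33, adjusted p = 0.0503). H2BC15, at 2.21 and 1.39 CPM in static and 1.08 and 0.901 under high flow, was not called (-0.85, adjusted p = 0.0730). H2BC17, between 0.125 and 0.263 CPM in all libraries, had log2 fold changes of -0.02 and 0.29. Without the second static library H2BC18, H2BC4 and H2BC11 lost their calls under high flow. H2BC18 and H2BC11 also lost them without the first high flow library, and H2BC4 and H2BC11 without the second.

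Of the H2A genes, H2AC6 (ENSG00000180573; chromosome 6, 26124172 to 26124690) had the most counts, with 13.7 and 16.8 CPM in static, 13.98 and 14.8 under low flow and 11.7 and 9.67 under high flow. Low flow overlapped with static, and high flow lay below both. It was 1.44-fold lower under high flow (log2 fold change -0.52, SE 0.14, adjusted p = 0.0209), and the call was lost with offsets for transcript length and GC content and without the second static or either high flow library. H2AC11 had 1.32 and 1.70 CPM, then 1.32 and 1.56, then 1.22 and 1.07, and was not called (-0.08 and -0.41, the latter with adjusted p = 0.371). H2AC20 had 0.606 and 0.652 CPM in static, 0.241 and 0.125 under low flow and 0.491 and 0.282 under high flow. All its flow libraries were below static, with the low flow libraries lowest, and neither comparison passed (adjusted p = 0.0596 and 0.357). H2AC12 (chromosome 6, 27147106 to 27147562) rested on few reads, with counts of 4 and 16 in static, 9 and 3 under low flow and 4 and 4 under high flow. Its call under high flow (log2 fold change -2.46, SE 0.75, adjusted p = 0.0358) was lost without the second static library, without either high flow library and with the replicate number as a block.

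H3C12 (ENSG00000197153; chromosome 6, 27890315 to 27890826, minus strand), an H3 gene, had 1.49 and 2.43 CPM in static, 0.812 and 0.457 under low flow and 0.702 and 0.357 under high flow. H2AC17 (ENSG00000278677; chromosome 6, 27892699 to 27893185, minus strand), an H2A gene, had 1.10 and 1.70, then 0.483 and 0.291, then 0.374 and 0.188 CPM. The RefSeq positions do not overlap, but in GENCODE 29 the exons of these genes overlap by 346 bases on the same strand. They may therefore share reads, and their values are not taken as independent. In both genes all flow libraries were below both static libraries. H3C12 was 3.12-fold lower under low flow (log2 fold change -1.64, SE 0.40, adjusted p = 0.0218) and 3.798-fold lower under high flow (-1.93, SE 0.41, adjusted p = 0.00601). H2AC17 was 3.64-fold lower under low flow (-1.87, SE 0.44, adjusted p = 0.0181) and 5.09-fold lower under high flow (-2.35, SE 0.46, adjusted p = 0.00354). Counted as 1 gene in an alternative added after the data were seen, they left 5 and 11 calls in place of 6 and 12. Without the second static library neither gene passed in either comparison, and without the second low or second high flow library neither passed against static in that flow.

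The other H3 genes had few reads. H3C3 (chromosome 6, 26045384 to 26045869) had counts of 10 and 13 in static, 0 and 5 under low flow and 5 and 5 under high flow, although the flow libraries were deeper. Its log2 fold changes were -3.32 (SE 0.80, adjusted p = 0.0201) and -2.38 (SE 0.71, adjusted p = 0.0331), and both calls were lost when either static library was left out, as was the call under high flow without either high flow library or with the replicate number as a block, and that under low flow without the first low flow library. H3C10 had 1.10 and 0.695 CPM in static, 0.395 and 0.374 under low flow and 0.351 and 0.469 under high flow. Its groups did not overlap with static, and neither comparison passed (-1.20, adjusted p = 0.107, and -1.09, adjusted p = 0.100). H3C13 had log2 fold changes of 0.44 and -0.35 with no call.

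H4C8 (ENSG00000158406; chromosome 6, 26285126 to 26285534, minus strand) gave most of the H4 counts, with 5.24 and 6.04 CPM in static, 4.13 and 3.41 under low flow and 2.74 and 2.53 under high flow. The 3 groups were apart. It was 2.15-fold lower under high flow (log2 fold change -1.10, SE 0.20, adjusted p = 0.00214), a call lost only without the second static library among the 12 alternatives, and was not called under low flow (-0.59, SE 0.19, adjusted p = 0.0744). H4C3 mixed across groups, at 1.10 and 1.74 CPM in static, 1.69 and 1.12 under low flow and 1.24 and 1.76 under high flow. H4C12 and H4C14, which share 100% and 97.5% of their 50-base words with other genes, had log2 fold changes of -1.31 and 0.74 under low flow and -1.22 and -0.23 under high flow, with no call.

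**Figure D3:**
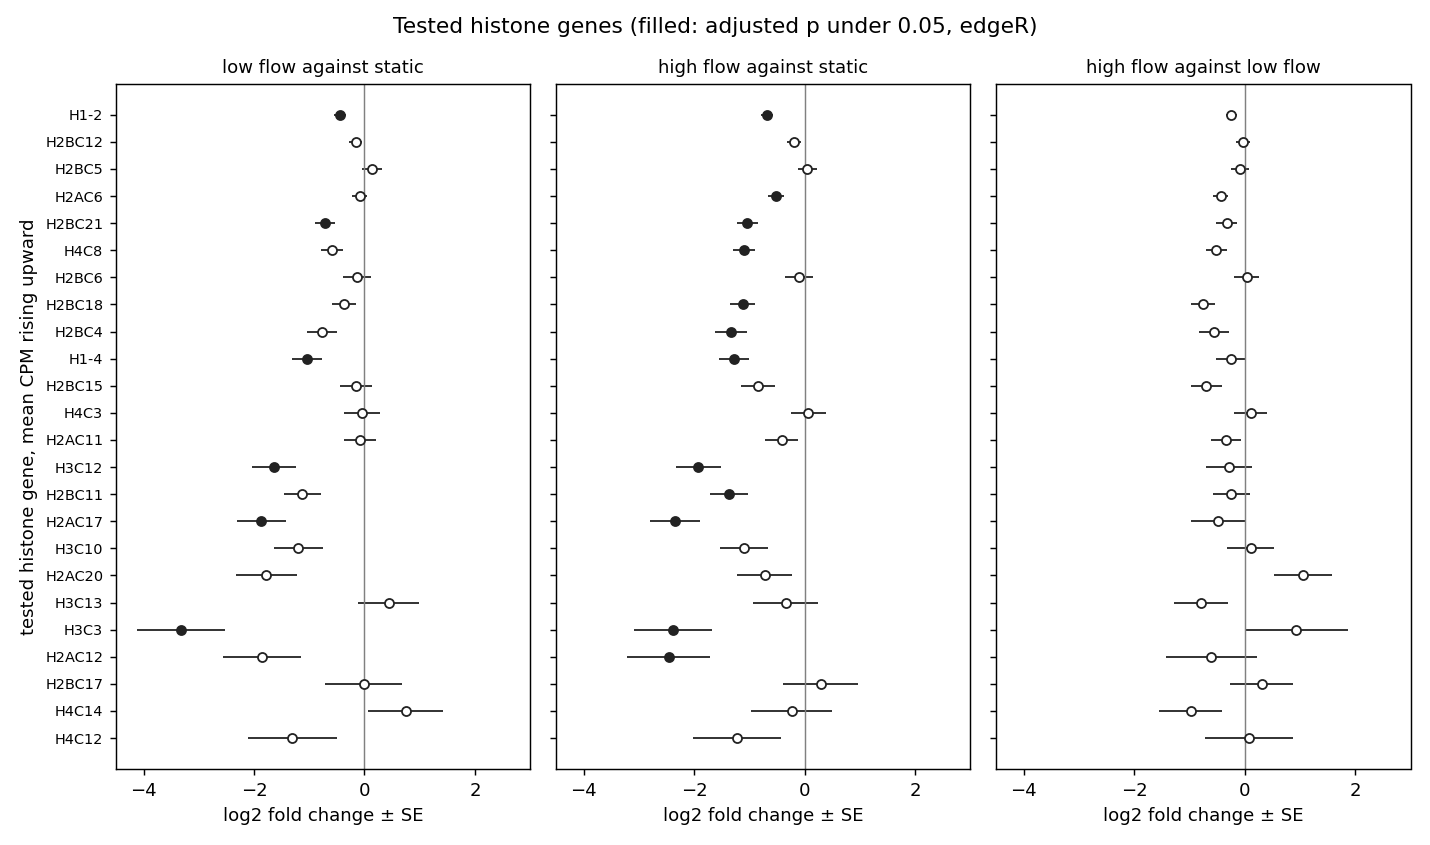
Log2 fold change with its SE for each of the 24 tested histone genes, in order of mean CPM, for low flow against static, high flow against static and high flow against low flow; filled points have an adjusted p under 0.05 in edgeR. There are 6 filled points in the first panel, 12 in the second and none in the third, and the bars widen toward the genes with few counts.

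Between the flow rates themselves no histone gene passed. For high flow against low flow edgeR called 0 of 24 lower (0.0919% of all tested genes) and 0 higher (0.242%). DESeq2 called 0 in either direction, against 27 lower and 89 higher over all tested genes. At an unadjusted p under 0.05 DESeq2 gave 4 lower and 0 higher, against 606 and 779 of all 20676 tested genes. At that level edgeR gave 5 lower and 0 higher, against 939 and 1051. The 5 were H2BC18 (log2 fold change -0.75, SE 0.22, adjusted p = 0.252), H2AC6 (-0.43, adjusted p = 0.283), H4C8 (-0.52, adjusted p = 0.388), H2BC15 (-0.70, adjusted p = 0.436) and H1-2 (-0.24, adjusted p = 0.443). High flow lay below low flow without overlap in 12 of 24 genes (21.5% of all tested genes) and above it in 1 (21.2%), with a median log2 fold change of -0.27 over the 24 beside 0.01 over all genes. The calls of H2BC18, H4C8 and H2AC6 under high flow and not under low flow are therefore not shown to differ between the flow rates.

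The other 42 genes stayed under the filter. Of these, 13 had 0 counts in all 6 libraries, among them H1-3, H4C4, H3C4 and H2AC7. H3C14, H3C15 and H3C4, at 0, share 100% of their 50-base words with another gene, and H2AC7 shares 98%. In GENCODE 29 the exons of H3C4 and H2AC7 also overlap those of AL031777.3 on the same strand, by 411 and 385 bases. The part of this in their 0 counts was not tested. Of the 13, 7 share no such word with any gene. A further 20 had 1 to 10 counts over the 6 libraries, and 9 had more, up to 36 for H4C9. The 42 genes summed to 2.21 and 2.48 CPM in static, 1.27 and 0.956 under low flow and 0.749 and 0.976 under high flow. Both flow groups lay below static in this sum, at ratios of 0.476 and 0.368.

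The 66 genes lie on chromosome 1 (11 genes, 149782689 to 149887965) and in 3 stretches of chromosome 6: 34 genes from 25726063 to 26285534, 5 from 27132316 to 27147562 and 16 from 27807479 to 27893891. Lower under high flow were 2 of the 5 tested genes on chromosome 1, 6 of 9 in the first stretch of chromosome 6, 2 of 4 in the second and 2 of 6 in the third. Under low flow the counts were 1, 3, 0 and 2 in the same order. The first stretch of chromosome 6 counts H3C3 in both comparisons, and the second counts H2AC12 under high flow. Both genes passed the filter only through static. The calls in the third stretch are H3C12 and H2AC17, which may share reads. Of all tested genes, 6.43% were lower under high flow and 3.49% under low flow. The counts of the stretches were not tested against each other.

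Divergent pairs, in which an H2A and an H2B gene share the region between their starts, are set side by side here, and the difference within a pair was not tested. Of 13 pairs of histone genes with starts within 1000 bases, 5 had both genes tested. H2BC12 and H2AC12, 248 bases apart at their starts, had log2 fold changes of -0.19 (SE 0.12) and -2.46 (SE 0.75) under high flow, and H2AC12 is 1 of the genes that passed the filter only through static. For H2AC17 and H2BC17, 240 bases apart, they were -2.35 (SE 0.46) and 0.29 (SE 0.68). H2BC17 had only 4 to 13 counts per library, and H2AC17 may share reads with H3C12. H2BC4 and H2AC6, 246 bases apart, gave -1.33 and -0.52, and H2BC11 and H2AC11 gave -1.37 and -0.41. Both genes were called only for H2BC4 and H2AC6. H2BC21 and H2AC20, on chromosome 1, gave -1.04 and -0.72. The sequences of the first 3 pairs are those printed above, with the octamer between the starts in each. Across the tested genes with a promoter sequence, CCAAT was in 9 of 10 called genes and 9 of 11 others, the octamer in 6 of 10 and 5 of 11, and TATAAA in 6 of 10 and 9 of 11. The 10 include H3C3 and the 11 include H4C12, both of which passed the filter only through static.

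Annotated longer transcripts were more common among the histone genes with counts. A transcript that is spliced, or that runs over 100 bases past the stem-loop, is annotated in GENCODE 29 for 23 of the 66 genes. It was annotated for 10 of the 14 genes that averaged 1 CPM or more and for 3 of the 13 with 0 counts. H4C8 has one that runs 1655 bases past its stem-loop, H2BC21 one of 1729 and H2BC18 one of 1479, whereas H1-2 and H1-4 have none found. H2BC12 is counted as without one, though its RefSeq span is longer than its GENCODE 29 transcript. Under high flow, 7 of the 13 tested genes with a longer transcript annotated were lower and 4 of the 10 without, against 6.43% of all tested genes. The 4 include H2AC12, and the 10 also H4C12, both of which passed the filter only through static. H3C3, also lower, matched no GENCODE 29 transcript and is in neither group. Gene counts do not tell the longer transcripts from the standard one.

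The replication-independent histone genes are spliced, polyadenylated and expressed outside S phase as well. Of the 17 listed, 15 were in the table and 12 were tested, with 0 called by edgeR in either direction under low or high flow and medians of 0.00 and -0.02. Of all tested genes, 3.49% and 6.43% were lower and 3.25% and 7.49% higher, so in a list of this length a count of 0 is near the background. At an unadjusted p under 0.05 edgeR gave 2 lower and 0 higher under low flow and none under high flow, and DESeq2 called 0. Over all tested genes edgeR gave 2426 lower and 2427 higher at that level under low flow, and 2963 and 3111 under high flow. DESeq2 called 856 and 1213 of all tested genes lower and 805 and 1547 higher. H3-3B, one of the H3.3 genes, had 473 and 425, then 433 and 468, then 436 and 455 CPM, and H3-3A had log2 fold changes of -0.20 and -0.19. H2AZ1, for the H2A.Z variant, had log2 fold changes of 0.00 and 0.08, and H2AX, for the variant phosphorylated at DNA breaks, of -0.31 (adjusted p = 0.0921) and 0.06. The list summed to 2252 to 2496 CPM in static, 2349 to 2499 under low flow and 2407 to 2430 under high flow, with overlapping groups.

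Some factors that transcribe and process the histone genes were lower under flow. Of 24 listed and tested, 2 were lower under low flow (CCNE1 and CASP8AP2), against 3.49% of all tested genes. Under high flow 4 were lower (CASP8AP2, CCNE2, SLBP and CPSF2), against 6.43%, and CPSF1 was higher, against 7.49%, with medians of -0.16 and -0.14. SLBP, the stem-loop binding protein, had 77.0 and 76.7 CPM in static, 63.6 and 62.1 under low flow and 61.1 and 62.1 under high flow. Its static libraries lay above all 4 others, 1.25-fold above high flow (log2 fold change -0.32, SE 0.09, adjusted p = 0.0294), and low flow missed the threshold (-0.29, adjusted p = 0.0667). NPAT, the coactivator that cyclin E and CDK2 act on at the histone clusters, was not called (-0.15 and -0.18, adjusted p = 0.437 and 0.295). CASP8AP2, also known as FLASH and a part of the histone pre-mRNA cleavage machinery, had 50.3 and 60.03 CPM in static, 44.4 and 40.1 under low flow and 35.4 and 41.4 under high flow, with calls in both (-0.39, adjusted p = 0.0486, and -0.52, adjusted p = 0.00680). The cyclin E genes CCNE1 and CCNE2 had log2 fold changes of -0.54 under low flow and -0.56 under high flow where they were called.

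Of the 22 histone chaperones and deposition factors, 4 were lower under low flow, against 3.49% of all tested genes: HJURP, NASP, ASF1B and CHAF1B. Under high flow NASP, MMS22L, HJURP and HAT1 were lower, against 6.43%. CABIN1, a subunit of the HIRA complex, was higher (log2 fold change 0.49, adjusted p = 0.00441), against 7.49% of all tested genes. NASP, a chaperone that holds a reserve of soluble H3 and H4, had 313 and 355 CPM in static, 262 and 221 under low flow and 238 and 234 under high flow, with log2 fold changes of -0.47 (adjusted p = 0.0145) and -0.50 (adjusted p = 0.00545). All its flow libraries lay below static. HJURP, the chaperone of the centromeric variant CENPA, had log2 fold changes of -0.53 and -0.35. The list's medians were -0.17 and -0.16.

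Some genes of S phase and DNA replication were lower under flow as well. Of 38 listed and tested, 12 were lower under low flow (3.49% of all tested genes) and 10 under high flow (6.43%). None was higher (3.25% and 7.49% of all tested genes), and the medians were -0.28 and -0.24. At an unadjusted p under 0.05 edgeR and DESeq2 gave 0 higher in both comparisons. Over all tested genes edgeR gave 2427 and 3111 higher at that level, and DESeq2 1920 and 2573. By p, the first 6 under low flow were TYMS, which makes thymidylate (log2 fold change -0.49), UHRF1 (-0.43), the replication factors MCM10 (-0.61) and RFC2 (-0.44), the maintenance methyltransferase DNMT1 (-0.42) and the polymerase subunit POLD3 (-0.51). Under high flow they were POLE2 (-0.60), PRIM1 (-0.55), POLD3 (-0.55), MCM10 (-0.51), TYMS (-0.37) and RRM1 (-0.34). The list's sum was 3964 to 4167 CPM in static, 3093 to 3521 under low flow and 3418 to 3564 under high flow, with static above and the flow groups overlapping. Under high flow the log2 fold changes ran from -0.33 (RFC2) to -0.60 (POLE2) among the called S phase genes. Among the called histone genes that did not pass only through static they ran from -0.52 (H2AC6) to -2.35 (H2AC17). Both ranges cover called genes only and were not tested against each other. Fewer cells in S phase and less histone RNA per cell cannot be told apart in these bulk samples.

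Structural RNAs that carry no poly(A) tail, such as 7SK and spliceosomal RNAs, were counted too, since they enter poly(A) libraries only by carry-over or through rare tailed forms. Of 21 listed, 12 were tested, with 1 lower under low flow (RN7SK; 3.49% of all tested genes) and 3 under high flow (RN7SK, SCARNA10 and RNU6ATAC; 6.43%), and medians of -0.71 and -0.44. RN7SK had 29.5 and 36.5 CPM in static, 6.21 and 3.24 under low flow and 3.07 and 3.45 under high flow, with log2 fold changes of -2.81 (adjusted p = 0.00469) and -3.34 (adjusted p = 0.00102). Its static libraries stood far above the rest. The list summed to 89.7 to 118 CPM in static, 51.9 to 55.0 under low flow and 55.7 to 112 under high flow, so high flow overlapped with static. The part of carried-over RNA without poly(A) tails in the histone values, and of S phase, was not tested.

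**Figure D4:**
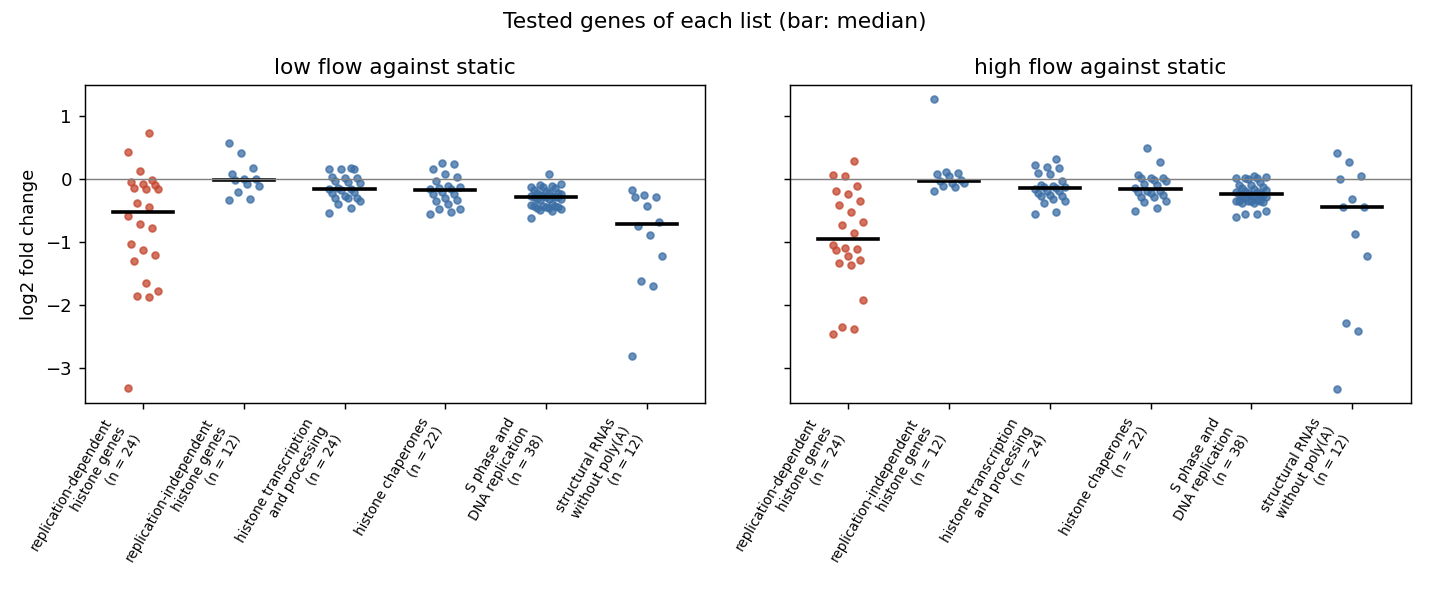
Log2 fold change of each tested gene (points) and the median (bar) for the histone genes and the other lists, in low flow and high flow against static. Histone medians lie at -0.51 and -0.94, the S phase list at -0.28 and -0.24, and the replication-independent histone genes at 0.00 and -0.02. The histone medians include H3C3, H2AC12 and H4C12, which passed the filter only through static.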

How the data were processed

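Poly(A) RNA of 6 libraries was sequenced after TRIzol lysis with a KAPA stranded mRNA kit, per the labels' protocols. The deposited values are raw counts per gene, whole numbers in 1 column per library. STAR, featureCounts and hg38 are named in the submitters' processing notes, and versions, settings and gene annotation are not given in the sources used here. No other columns of per-sample values were present, and every row names a gene. Reads that map to several near-identical histone genes, or to genes overlapping on a strand, can be lost or shared in such counts.

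All 60591 genes entered the edgeR 4.0.16 expression filter (R 4.3.3, minimum count 10), which left 20676. These were fitted with TMM normalization and the quasi-likelihood test over all 6 libraries, with 3 residual degrees of freedom. Benjamini-Hochberg adjustment was applied to the two-sided p-values of each of the 3 comparisons. CPM was computed from the deposited counts with TMM factors, and SE is that of the log2 fold change. The counting precision follows from the totals given in the report. Where the libraries of a group are not separate cultures, p-values reflect technical spread only. The histone genes and the other lists were chosen with earlier results of these data known. Named were all tested histone genes, up to 6 called genes per list and comparison by p, and SLBP, NPAT, H2AX, H2AZ1, H3-3A and H3-3B whatever their p; 1 further gene of that rule is not reported here. Marker genes and untested histone genes named singly were picked with their values known. Libraries with the same replicate number did not deviate together across groups, as the closing section gives, so no block entered the fit. Alternatives were RLE normalization, no filter, a replicate block, offsets for length and GC content, DESeq2 1.42.0, only the 4 libraries compared, and each library left out. The fit was tested on simulated data with 200 changed genes per comparison. It recovered 67.2% of 2-fold changes for low flow against static, 59.7% for high flow against static and 73.1% for high against low flow. For 1.5-fold changes it recovered 44.8%, 47.8% and 44.8%, and for 3-fold changes 77.3%, 74.2% and 84.8%. In the same order, it called 18, 16 and 32 unchanged genes. Even if all 200 changed genes were called, these would be over 0.05 of the calls. The threshold thus let through more false calls than its nominal rate in this simulation. The changed genes were not drawn to match the counts of the histone genes. Positions and promoters came from RefSeq on GRCh38.p14 and transcripts from GENCODE 29, counted from 1.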

Additional observations from a re-analysis of the deposited data

How the results depend on the processing

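For histone genes lower under low flow, 6 in the analysis as reported, DESeq2 gave 2, of 9 members with an adjusted p, and leaving out 1 library at a time gave 0 to 7. For those lower under high flow, 12 as reported, leaving out 1 library gave 3 to 14. The fits without a library have fewer samples, and the cause of the DESeq2 difference was not tested beyond its missing adjusted p-values. RLE normalization gave 7 and 12, no filter 8 and 14 of 53 tested, length and GC offsets 6 and 11, and only the 4 libraries compared 4 and 12. Over all tested genes the lower calls were 722 and 1329 as reported, 739 and 1344 with RLE and 1005 and 1123 with the offsets. With a replicate block they were 496 and 1014, and with DESeq2 856 and 1213. Without the filter, with only the 4 libraries compared and with a library left out they are not given here. The histone counts of those settings therefore stand without a background. Some settings were chosen after seeing the data. Among them, a mean of at least 1 CPM, which H3C12 passed only through static, gave 4 and 8. The other, H3C12 with H2AC17 as 1 gene, gave 5 and 11. No member was called higher under flow, or in high flow against low flow in either direction, under any of these. With the replicate number as a block the counts were 4 and 10, and the calls it kept were all among those reported. The numbers did not pair the samples: the deviations of same-numbered libraries correlated at -0.14 for static and low flow, -0.05 for static and high flow and 0.14 for low and high flow over 20676 genes. Most members had few counts, which limits the precision of their values.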
